A study of Syntrichia ruralis with 8 samples.

Results

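Glutathione transferases and glyoxalases were represented by 5 clones among the 768 clones of a cDNA array of the desiccation-tolerant moss Tortula ruralis (Syntrichia ruralis). They were chosen by their annotation, which had to name a glutathione S-transferase, a glyoxalase or a lactoylglutathione lyase. The rule uses no measured value, but it was set with earlier results of these data known. The transferases were USD-460, annotated as microsomal glutathione S-transferase 3, and USD-690, annotated as glutathione S-transferase. The glyoxalase clones were USD-102 (lactoylglutathione lyase family protein), USD-190 (a putative lactoylglutathione lyase, glyoxylase I) and USD-104 (glyoxalase, bleomycin resistance protein, dioxygenase). An annotation was given for 209 clones and none for the other 559, so further clones of these enzymes could not be found by name. Whether any of these clones derive from the same gene was not tested.

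Glutathione is a small thiol peptide that plant cells use against peroxides and reactive carbonyls. Glutathione transferases join it to electrophilic compounds, and microsomal members sit in the membrane, where members of that family in mammals also act on lipid hydroperoxides. Glyoxalase I, also called lactoylglutathione lyase, converts the adduct of methylglyoxal and glutathione to lactoylglutathione, which glyoxalase II hydrolyses. Methylglyoxal is a reactive by-product of sugar breakdown. Proteins of the wider glyoxalase, bleomycin resistance and dioxygenase superfamily share a fold, and not all of them are glyoxalases.

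Each of the 8 two-colour arrays set RNA of treated gametophytes, the leafy haploid plants, against RNA of hydrated gametophytes. Slow-dried plants had been kept for 24 h at 20 °C and 66% relative humidity over saturated sodium nitrite. Rehydrated plants had been dried rapidly over silica gel and then rewetted for 2 h. Rapidly dried plants without rewetting were not analysed here. Hydrated plants, and the plants of both treatments beforehand, had been hydrated for 48 h after dry storage of collected material. For both treatments there were arrays of total RNA and arrays of polysomal RNA, the RNA carried by ribosome assemblies. Each of these 4 comparisons had 2 arrays whose RNA was prepared separately, each time from a pool of plants of at least 3 clumps, with the treated RNA in Cy3 on replicate 1 and in Cy5 on replicate 2. The arrayed cDNAs came from a subtracted library, so they are not a random sample of transcripts.

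The share of clones well above background lay between 82.6 and 98.6% in the treated channel. In the hydrated channel it was 42.4% on rehydrated total replicate 1 and between 71.2 and 94.9% on the other arrays. The title of rehydrated polysomal replicate 2 names slow drying, while its source and protocol name rapid drying with rehydration. Its log2 ratios over all clones had r = 0.93 with replicate 1 of the same comparison, and r = 0.73 and r = 0.74 with the pair of slow-dried polysomal arrays. Of 4 clones that mark green tissue, the light-harvesting chlorophyll a/b-binding protein and carbonic anhydrase clones were well above background in the hydrated channel on all 8 arrays, and the early light-inducible protein clones on 6 and 5 arrays. Total and polysomal RNA came from separate samples and were on different slides, numbered 2 to 6 and 73 to 105. The RNA fraction and the set of slides therefore cannot be told apart.

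Values below are log2 ratios of treated over hydrated signal, on 2 scales. On the typical-clone scale, loess normalization within each array places the middle of all clones near 0. On the control scale each array was then shifted so that 4 ribosomal protein clones (L17, S14, S16 and S3), which the labels describe as unaffected by drying, average 0. On the typical-clone scale they ranged from -1.79 to -0.87 in slow-dried total and from -1.92 to -0.71 in rehydrated total RNA. In polysomal RNA they ranged from -1.62 to -1.05 (slow-dried) and from -1.17 to -0.84 (rehydrated). The shift uses their mean, so p-values on the control scale leave out this spread between the control clones. The median of all clones on the control scale was 1.53 for slow-dried total, 1.18 for rehydrated total, 1.44 for slow-dried polysomal and 1.04 for rehydrated polysomal RNA. A clone below 0 on the first scale can therefore be at or above 0 on the second. A call is an adjusted p under 0.05 in limma, with Benjamini-Hochberg adjustment over all 768 clones. Each scale had its own fit, with more total degrees of freedom on the control scale. The sizes of p-values are therefore not comparable between scales.

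In slow-dried total RNA, 3 of the 5 clones fell relative to the typical clone (USD-460, USD-190 and USD-104) and 1 rose (USD-102). Over all 768 clones 30.6% fell and 32.4% rose. In RNA of whole plants, fewer cells of a type and less RNA per cell cannot be told apart. In rehydrated total RNA the same 3 clones fell and none rose, against 26.8% lower and 29.4% higher over all clones. They also fell in slow-dried polysomal RNA, where 24.5% of all clones were lower and 21% higher, and in rehydrated polysomal RNA, where 17.6% were lower and 19% higher. Without rehydrated polysomal replicate 1 or replicate 2, the array with the differing title, limma called 0 of the 5 and 0 of the 768 clones in that last comparison, and 2 of the 5 had an unadjusted p under 0.05 in either case. Without rehydrated total replicate 1, the array with the dim hydrated channel, the 3 clones still fell in both rehydrated comparisons. The median log2 ratio of the 5 clones was -1.59, -0.93, -1.09 and -0.86 in these 4 comparisons in the order given, and that of all clones was 0.05, -0.01, 0.03 and -0.02. USD-690 was called in none of the 4 by limma, with unadjusted p-values of 0.0587, 0.109, 0.0419 and 0.0191.

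Against the control clones the calls were split differently. USD-460 and USD-190 remained lower in slow-dried total RNA and USD-460 in slow-dried polysomal RNA, while USD-690 and USD-102 were higher in all 4 comparisons. USD-104 was not called in any. Of all clones, 3.26% were lower and 77.7% higher for slow-dried total, 1.56% lower and 72.5% higher for rehydrated total, 2.6% lower and 81.6% higher for slow-dried polysomal, and 1.3% lower and 75.5% higher for rehydrated polysomal RNA. A higher call on this scale was thus the common outcome over all clones, and a lower one was uncommon. The scales differ by a constant for each array, which leaves the order of the clones within an array as it was.

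**Figure D1:**
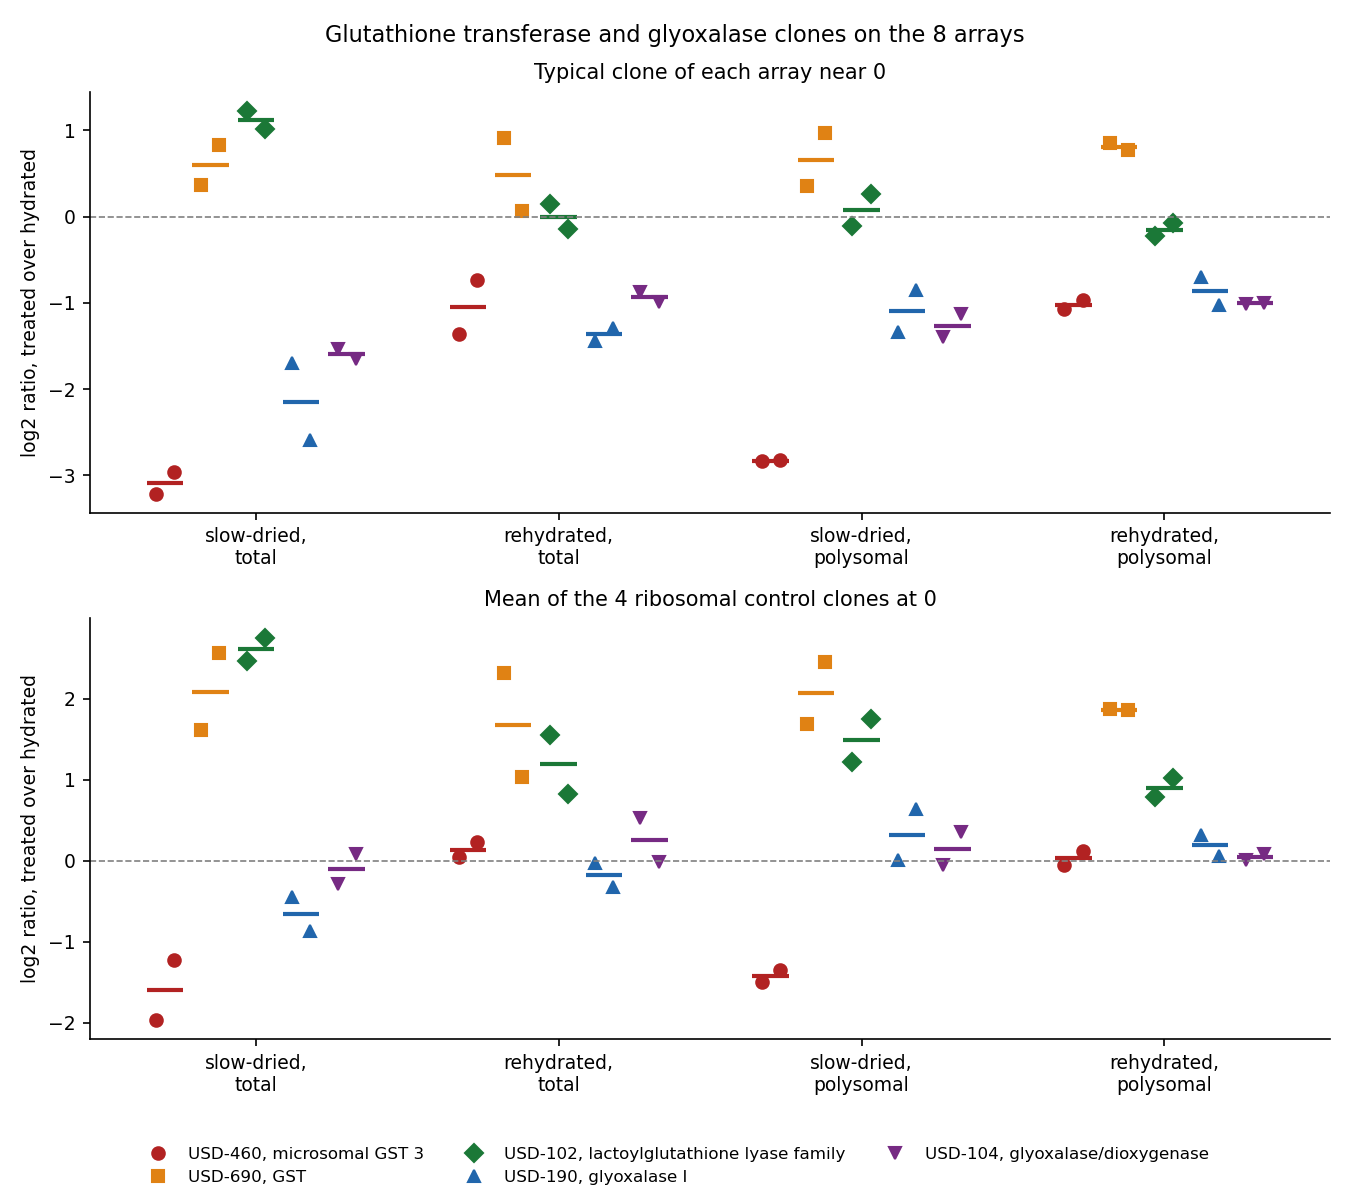
Log2 ratio of treated over hydrated signal for the 5 clones on each of the 8 arrays (vertical axis), grouped by treatment and RNA fraction (horizontal axis), on the typical-clone scale and on the control scale; each point is 1 array, with replicate 1 on the left, and each bar is the mean of 2 arrays. USD-460 lies between -3.21 and -2.83 on the 4 slow-dried arrays and between -1.36 and -0.74 on the 4 rehydrated arrays on the typical-clone scale.

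USD-460, the microsomal glutathione S-transferase clone, was the member furthest below the typical clone in slow-dried tissue. Its spots read 3144 and 1458 scanner units above local background in slow-dried total RNA on replicates 1 and 2, against 8676 and 4592 in hydrated RNA on the same arrays. In slow-dried polysomal RNA they read 2108 and 3554, against 9081 and 6296 in hydrated RNA. The hydrated channel was the brighter one on all 4 slow-dried arrays, with either dye.

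After normalization its log2 ratios were -3.21 and -2.96 in slow-dried total RNA and -2.84 and -2.83 in slow-dried polysomal RNA. They were -1.36 and -0.74 in rehydrated total RNA and -1.07 and -0.97 in rehydrated polysomal RNA. The slow-dried and rehydrated arrays did not overlap, and all 24 spots of the clone lay below 0. The fitted change was -3.09 ± 0.16 (SE, n = 2 arrays, adjusted p = 0.000179, limma) in slow-dried total RNA, an 8.50-fold lower level with a 95% interval of 6.52 to 11.1-fold. In slow-dried polysomal RNA it was -2.83 ± 0.16 (adjusted p = 0.000262, limma), or 7.12-fold lower. In both, 5 of the 768 clones had a lower value. Each SE here and below comes from the spread of a clone pooled over the 8 arrays of the fit. It is therefore the same in all 4 comparisons with hydrated tissue.

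In rehydrated tissue USD-460 was also below the typical clone, by a smaller amount. The change was -1.05 ± 0.16 (adjusted p = 0.00202, limma) in rehydrated total RNA and -1.02 ± 0.16 (adjusted p = 0.00608, limma) in rehydrated polysomal RNA. Set against the control clones these values became 0.14 (adjusted p = 0.667) and 0.03 (adjusted p = 0.920), neither of them called. The slow-dried values on that scale were -1.60 (adjusted p = 1.33e-05) in total RNA and -1.42 (adjusted p = 6.35e-05) in polysomal RNA, a 3.03-fold and a 2.68-fold lower level. The direction in slow-dried tissue was therefore the same on both scales, and the direction in rehydrated tissue was not.

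Clones that mark green tissue moved with USD-460 in part. The chloroplast carbonic anhydrase clone USD-156, whose enzyme interconverts carbon dioxide and bicarbonate, had -3.11, -1.49, -3.86 and -2.48 in slow-dried total, rehydrated total, slow-dried polysomal and rehydrated polysomal RNA, and the light-harvesting clone USD-180 had -3.09, -1.25, -2.93 and -1.69, all called as lower (limma). Relative to the control clones both were lower in both slow-dried comparisons and neither in rehydrated total RNA (-0.31 and -0.07), while USD-156 alone was in rehydrated polysomal RNA (-1.43 and -0.64). The early light-inducible protein clones, of proteins that bind pigment under light stress, were called as lower in no comparison by limma. USD-274 had 1.46, 0.61, 0.56 and -0.15, of which the first 3 were called as higher, and USD-305 had 2.02, 0.12, 0.35 and -0.52, of which only the first was. In rehydrated total RNA the hydrated channel of USD-305 was not well above background on either array. The 4 clones together held 0.424 to 0.692% of the summed signal of all clones in slow-dried total RNA, against 1.89 to 1.95% in hydrated RNA, and 0.665 to 0.732% in slow-dried polysomal RNA, against 2.16 to 2.77%. In rehydrated tissue they held 0.623 to 0.732% of total RNA signal, against 1.66 to 1.74%, and 0.686 to 0.760% of polysomal RNA signal, against 2.03 to 2.10%. These sums join 2 clones that fell with the early light-inducible clones, which were not called as lower, so they do not measure green-tissue content alone. The part of green-tissue content in the values of USD-460 was not tested.

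The 2 treatments were compared directly for USD-460. Its log2 ratio in total RNA was lower in slow-dried than in rehydrated tissue by a difference of -2.04 ± 0.22 (adjusted p = 0.00516, limma), and 8 clones had a lower difference. With the control scale it was -1.74 (adjusted p = 0.00644). In polysomal RNA it was -1.81 ± 0.22 (adjusted p = 0.0152, limma) on the typical-clone scale and -1.45 (adjusted p = 0.112) on the control scale, where limma called 0 of the 768 clones and 172 had an unadjusted p under 0.05. Leaving out any 1 of the 4 polysomal arrays also ended this call, with values of -1.97 to -1.65 and adjusted p of 0.148 to 0.277. The polysomal ratio did not differ from the total ratio beyond the spread in slow-dried tissue, with a difference of 0.26 and a 95% interval of -0.28 to 0.79, or in rehydrated tissue, with 0.03 and an interval of -0.51 to 0.57.

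USD-690, the other transferase clone, gave positive ratios on all 8 arrays. The values were 0.37 and 0.83 in slow-dried total RNA, 0.91 and 0.06 in rehydrated total RNA, 0.35 and 0.97 in slow-dried polysomal RNA, and 0.85 and 0.77 in rehydrated polysomal RNA. The arrays of the 2 treatments overlapped. The fitted changes were 0.60 ± 0.26 (adjusted p = 0.0847), 0.49 (adjusted p = 0.158), 0.66 (adjusted p = 0.0824) and 0.81 (adjusted p = 0.0519) in that order (limma), so none was called on this scale. Without rehydrated total replicate 1 or replicate 2 the adjusted p was 0.0188 for slow-dried total, 0.0177 for slow-dried polysomal and 0.0112 for rehydrated polysomal RNA, each a call at the same fitted change. The change in rehydrated total RNA was -0.11 (adjusted p = 0.768) without replicate 1 and 1.08 (adjusted p = 0.0161) without replicate 2.

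The hydrated signal of USD-690 was low in total RNA, and 6 of its 24 spots carried a flag. In the hydrated channel the clone was not well above background on either slow-dried total array or on rehydrated total replicate 1, and on slow-dried total replicate 1 neither was its treated channel. For slow-dried total RNA the 95% interval of its log2 ratio ran from -0.03 to 1.23, and with no background correction the ratio was -0.26 (adjusted p = 0.354, limma). Its size there thus rests on signals near background, and no fold is given. Both channels were well above background on all 4 polysomal arrays. Relative to the control clones its changes were 2.09, 1.67, 2.07 and 1.86 in the same order (adjusted p of 3.60e-06, 8.19e-05, 5.72e-06 and 4.11e-05). They stood beside medians over all clones of 1.53, 1.18, 1.44 and 1.04.

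The 2 transferase clones kept one order on every array. The log2 ratio of USD-460 minus that of USD-690 was negative on 8 of 8 arrays and lay between -3.80 and -0.80. This difference does not depend on the scale, since both clones share each array's shift, and it has no test here. Its size is uncertain on both slow-dried total arrays and rehydrated total replicate 1, where the hydrated signal of USD-690 was not well above background.

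**Figure D2:**
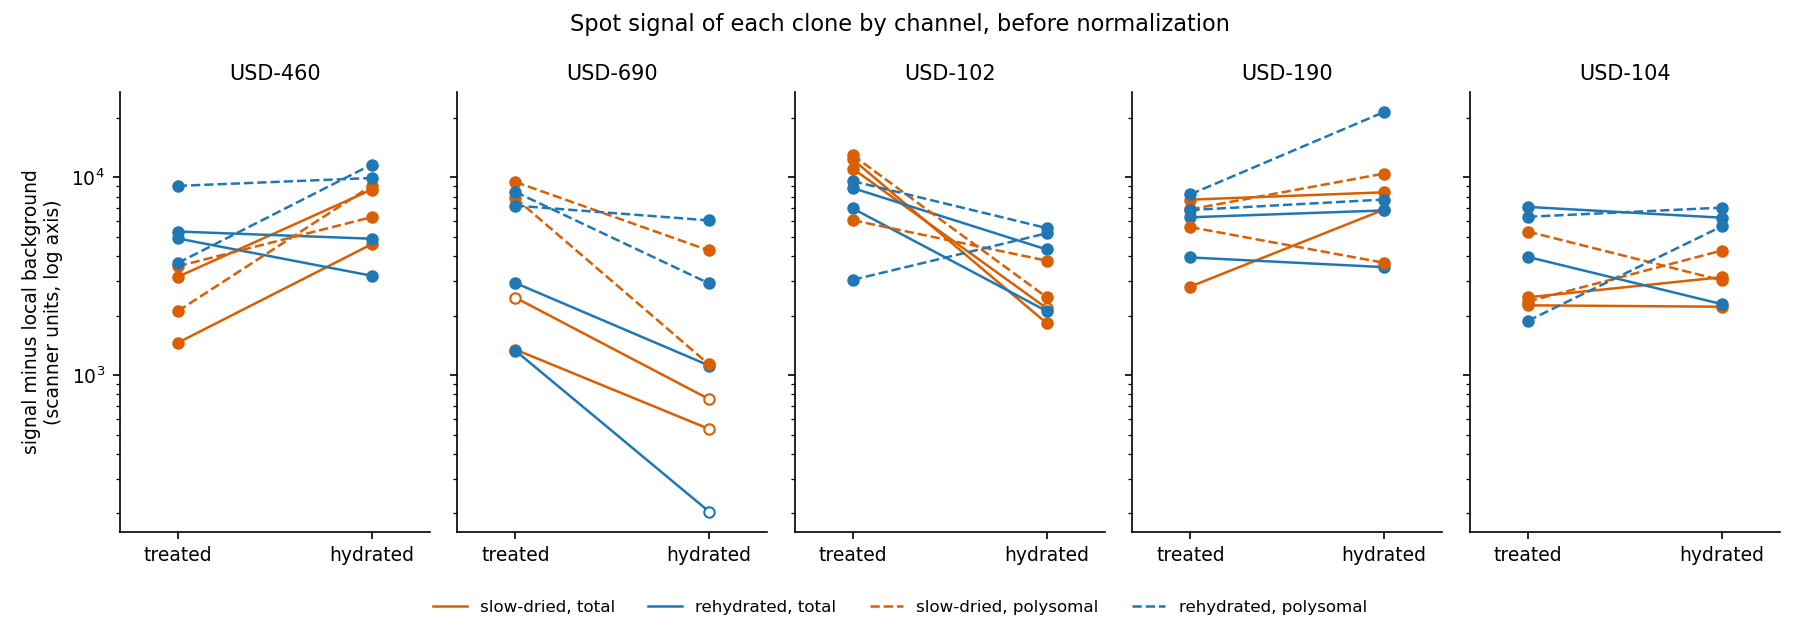
Signal minus local background in scanner units (vertical axis, log scale) for each clone in the treated channel and in the hydrated channel, before normalization; each line joins the 2 channels of 1 array. For USD-460 the line rises towards the hydrated channel on all 4 slow-dried arrays.

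Among the glyoxalase clones, USD-102 was the one that rose relative to the typical clone, in slow-dried total RNA. Its spots read 12326 and 11071 scanner units above background in slow-dried total RNA, against 1833 and 2182 in hydrated RNA. The log2 ratios were 1.22 and 1.02 in slow-dried total RNA. They were 0.14 and -0.14 in rehydrated total RNA, -0.11 and 0.26 in slow-dried polysomal RNA and -0.23 and -0.07 in rehydrated polysomal RNA. The slow-dried total arrays thus lay above the other 6 arrays, which lay on both sides of 0.

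The change of USD-102 in slow-dried total RNA was 1.12 ± 0.17 (SE, n = 2, adjusted p = 0.00146, limma), a 2.18-fold higher level. The 3 spots of the clone spread widely there. They gave 0.79, 2.14 and 0.75 on replicate 1 and 0.97, 2.10 and -0.00 on replicate 2, and the hydrated channel of replicate 2 was not well above background. In the other comparisons the change was 0.00 (adjusted p = 0.997) in rehydrated total RNA, 0.08 (adjusted p = 0.728) in slow-dried polysomal RNA and -0.15 (adjusted p = 0.513) in rehydrated polysomal RNA.

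Relative to the control clones USD-102 was higher in every comparison, with 2.61 in slow-dried total, 1.19 in rehydrated total, 1.48 in slow-dried polysomal and 0.90 in rehydrated polysomal RNA. The adjusted p-values were 2.87e-08, 0.000826, 6.49e-05 and 0.00809. In slow-dried total RNA this value exceeded the median of all clones of 1.53, and in the other comparisons it lay close to the medians of 1.18, 1.44 and 1.04.

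The treatments differed for USD-102 in total RNA, where the ratio was higher in slow-dried than in rehydrated tissue by 1.12 ± 0.24 (adjusted p = 0.0257, limma). In polysomal RNA the difference was 0.23 with a 95% interval of -0.34 to 0.80 (adjusted p = 0.583). In slow-dried tissue the polysomal ratio was below the total ratio by a difference of -1.05 ± 0.24 (adjusted p = 0.0205, limma), on different slides as stated above. Measured against the control clones, that difference was -1.13 (adjusted p = 0.0562), while the difference between treatments in total RNA was 1.42 (adjusted p = 0.0278). Over all clones, the difference between treatments in total RNA was called higher for 6.38% and lower for 11.3%. The polysomal minus total difference in slow-dried tissue was called higher for 13.8% and lower for 15.5%. With the control scale these shares were 7.29% and 4.3% between treatments and 9.24% and 9.77% between fractions.

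Both of these differences for USD-102 were lost in some alternatives. The difference between treatments in total RNA was not past the threshold in 10 of 21 alternative settings, and the polysomal minus total difference in 10 of 20. The difference between treatments lost its call without either slow-dried total array, rehydrated total replicate 2 or either rehydrated polysomal array (0.92 to 1.26, adjusted p of 0.0573 to 0.0873). The polysomal minus total difference lost it without any 1 of the slow-dried arrays or either rehydrated polysomal array (-1.29 to -0.80, adjusted p of 0.0551 to 0.145).

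USD-190, annotated as glyoxylase I, lay below the typical clone on every array. Its log2 ratios were -1.69 and -2.59 in slow-dried total, -1.44 and -1.29 in rehydrated total, -1.33 and -0.85 in slow-dried polysomal, and -0.70 and -1.03 in rehydrated polysomal RNA. The slow-dried total arrays were the lowest, and the other 6 overlapped. The changes were -2.14 ± 0.24 (adjusted p = 0.000547), -1.36 (adjusted p = 0.00382), -1.09 (adjusted p = 0.0116) and -0.86 (adjusted p = 0.0349) in that order (limma). In slow-dried total RNA this was 4.42-fold below hydrated tissue relative to the typical clone, and 20 of the 768 clones had a lower value.

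Against the control clones USD-190 was lower in slow-dried total RNA alone, with -0.66 (adjusted p = 0.0377). The other 3 values were -0.18 in rehydrated total, 0.32 in slow-dried polysomal and 0.19 in rehydrated polysomal RNA, none of them called (adjusted p of 0.577, 0.296 and 0.551). In the authors' ratios, also scaled to the control clones, the slow-dried total value was -0.33 and not called (adjusted p = 0.173, limma). On slow-dried polysomal replicate 2, 1 flagged spot read 0.44 and the other spots read -1.49 each. Without flagged spots the change in slow-dried polysomal RNA was -1.41 in place of -1.09, and without replicate 1 it was -0.67 (adjusted p = 0.211), no longer a call. The polysomal minus total difference in slow-dried tissue was 1.05 ± 0.34 (adjusted p = 0.0611, limma) and was not called. It was 1.55 (adjusted p = 0.0195) without slow-dried total replicate 1 and passed narrowly without either rehydrated total array (adjusted p = 0.0492).

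USD-104, the clone of the glyoxalase, bleomycin resistance and dioxygenase superfamily, was also below the typical clone on every array and in all 24 spots. Its ratios were -1.53 and -1.66 in slow-dried total, -0.87 and -0.99 in rehydrated total, -1.40 and -1.13 in slow-dried polysomal, and -1.01 and -1.003 in rehydrated polysomal RNA. The 4 slow-dried arrays lay below the 4 rehydrated ones without overlap on this scale. The changes were -1.59 ± 0.14 (adjusted p = 0.000276), -0.93 (adjusted p = 0.00209), -1.27 (adjusted p = 0.00103) and -1.01 (adjusted p = 0.00608) in that order (limma).

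USD-104 was called in no comparison on the control scale by limma. The changes there were -0.11 (adjusted p = 0.730), 0.25 (adjusted p = 0.420), 0.14 (adjusted p = 0.641) and 0.04 (adjusted p = 0.889), and the slow-dried and rehydrated arrays overlapped. The slow-dried minus rehydrated difference was -0.66 in total RNA (95% interval -1.15 to -0.18, adjusted p = 0.0689), which was not called.

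The clones annotated as glyoxalases were set against each other within each array. USD-102 exceeded USD-104 in log2 ratio on 8 of 8 arrays, by 0.78 to 2.76 with a median of 1.15, and it exceeded USD-190 on 8 of 8 arrays, by 0.47 to 3.62. The gap to USD-104 was 2.76 and 2.68 on the slow-dried total arrays and between 0.78 and 1.40 on the other 6. USD-104 and USD-190 did not keep an order, with USD-104 above USD-190 on 5 of 8 arrays and a range of -0.31 to 0.94. These differences within an array are the same on both scales and have no test here.

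**Figure D3:**
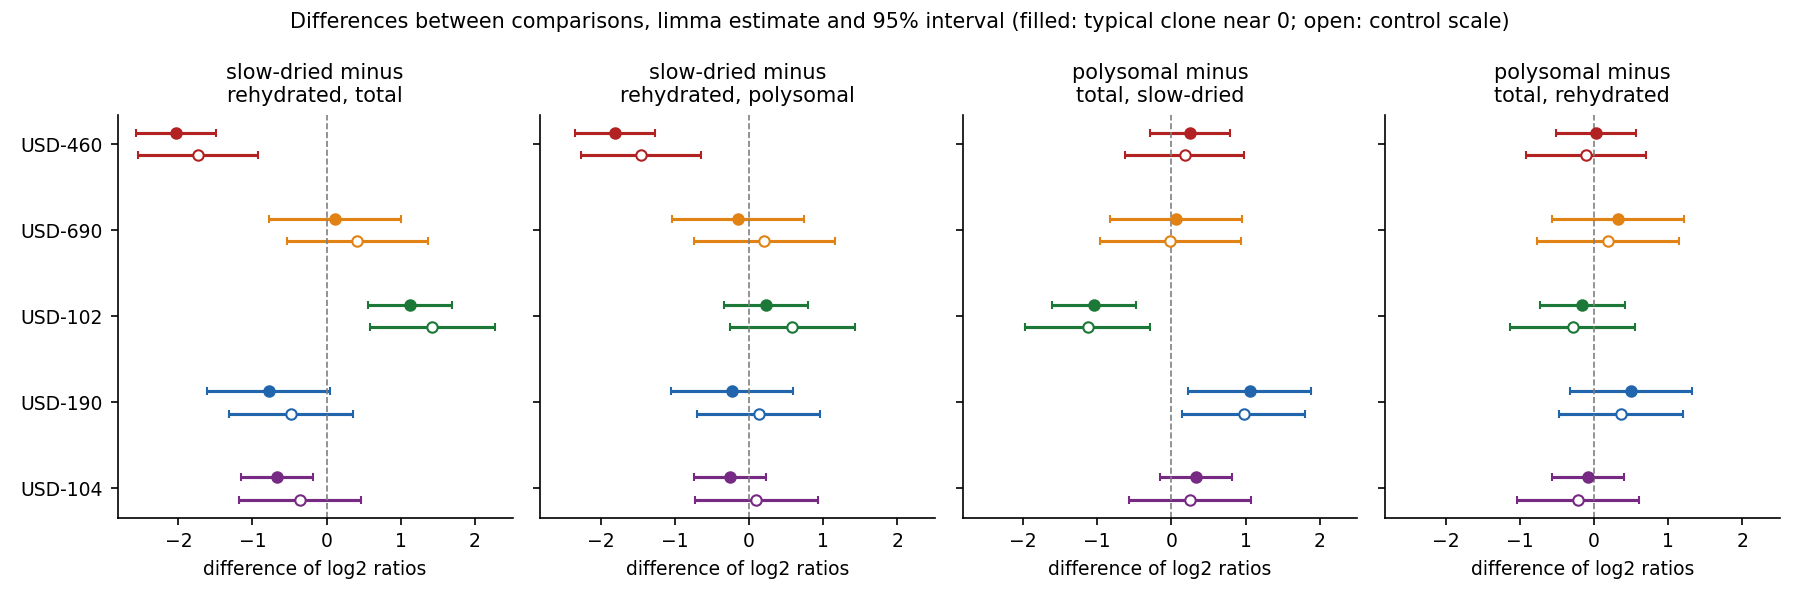
Differences between comparisons for each clone (vertical axis) in log2 units (horizontal axis), as limma estimates with 95% intervals, for slow-dried minus rehydrated tissue and for polysomal minus total RNA; filled symbols show the typical-clone scale and open symbols the control scale. The differences called on the typical-clone scale are those of USD-460 between treatments (-2.04 and -1.81) and those of USD-102 (1.12 and -1.05).

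In the deposited table the authors give 1 ratio of treated over hydrated per clone and array, scaled so that the median of the control clones is 1. For USD-460 the authors' deposited table holds ratios of 0.310 and 0.619 in slow-dried total RNA and 0.387 and 0.405 in slow-dried polysomal RNA. Its rehydrated ratios in the authors' deposited table were 0.930 and 1.75 in total RNA and 1.03 and 1.17 in polysomal RNA. USD-102 had 6.37 and 10.6 in slow-dried total RNA in the authors' deposited table, where the array medians of all clones ranged from 2.02 to 4.81. For USD-690 the authors' deposited table holds 96.3 and 2.94 in rehydrated total RNA, and the first of these is from the array on which its hydrated signal was above the local background but not well above it.

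Over all clones the slow-dried minus rehydrated difference in polysomal RNA was called lower for 3.65% and higher for 0.26%, and USD-460 was the member among them. The polysomal minus total difference in rehydrated tissue was called for none of the 5 clones by limma. It was called higher for 14.5% and lower for 15.5% of all clones, and the smallest unadjusted p among the members was 0.191, for USD-190. Relative to the control clones it was called for 5.6% higher and 13.2% lower, with none of the 5 among them.

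**Figure D4:**
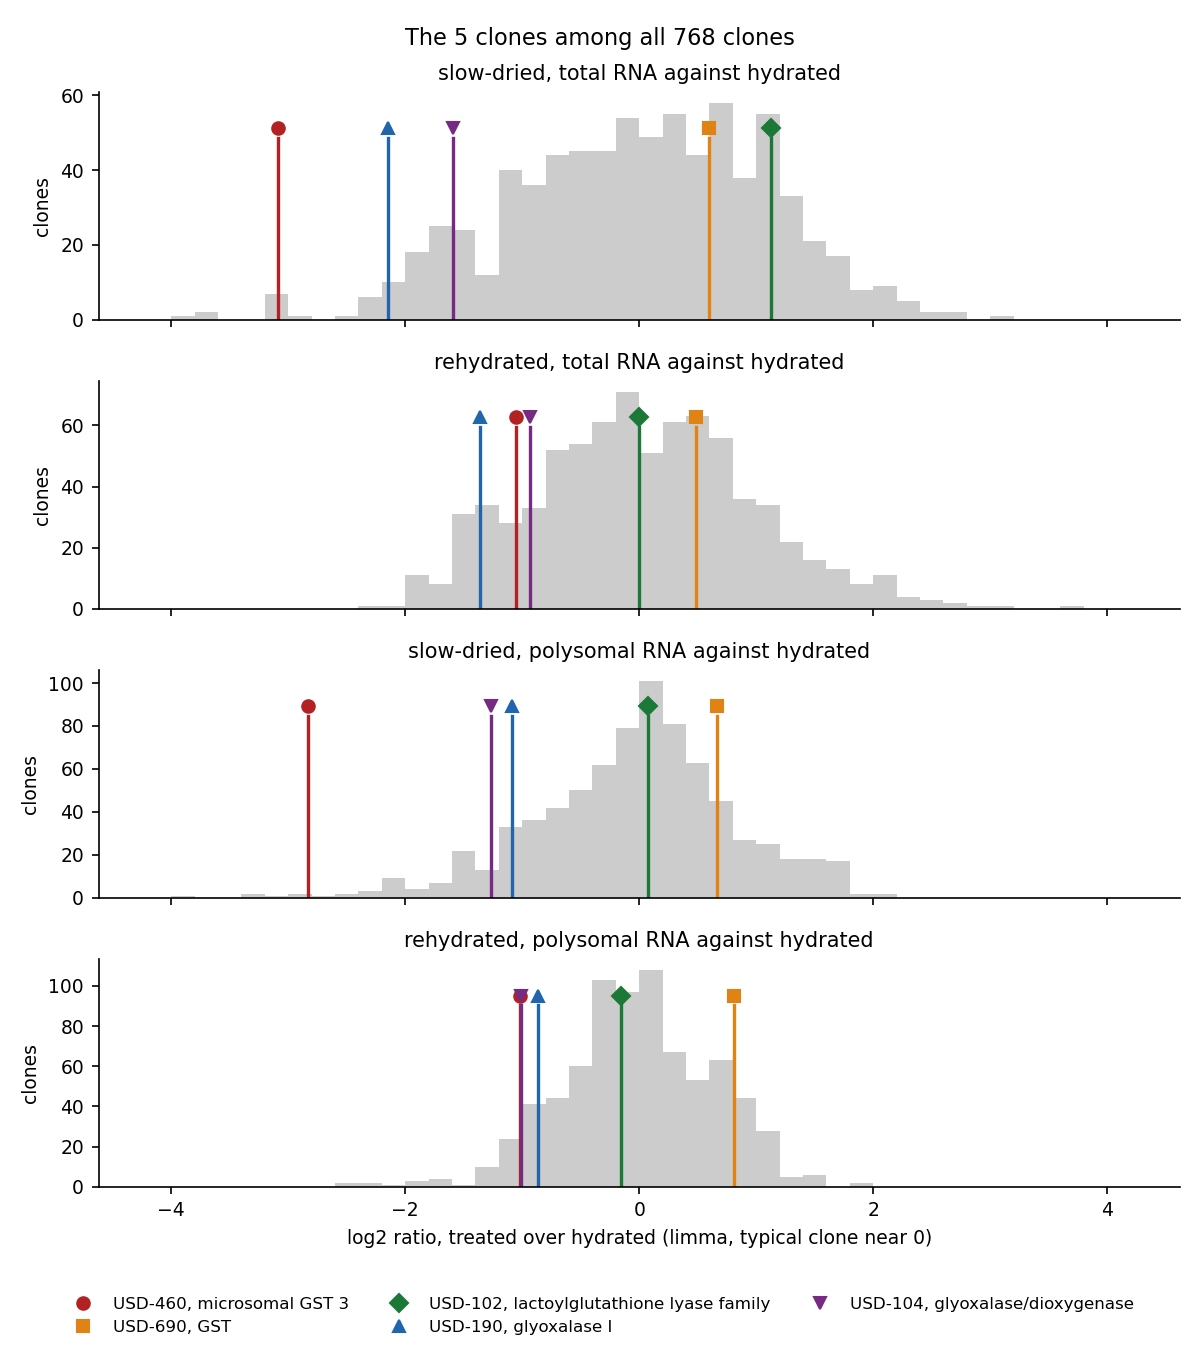
Number of clones (vertical axis) by limma log2 ratio of treated over hydrated (horizontal axis, typical clone near 0) for all 768 clones in the 4 comparisons, with the 5 clones marked by vertical lines. USD-460 lies at the low end in slow-dried total (-3.09) and slow-dried polysomal RNA (-2.83), and USD-690 and USD-102 lie at or above the middle in slow-dried tissue.

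For each clone the annotated clones most like it were taken by the root-mean-square difference in log2 ratio over the 8 arrays, among 200 candidates. Those nearest to USD-460 were the rehydrin Tr-416 (0.55), the chitinase USD-667 (0.64) and the light-harvesting chlorophyll a/b-binding protein USD-180 (0.65). Those nearest to USD-690 were the Pirin-like protein USD-330 (0.39), annexin a7 USD-715 (0.42) and USD-569, annotated as a proline-rich protein (0.43). Their r with USD-690 over the arrays was 0.31, -0.36 and 0.26, so they were near in level but did not follow it. For USD-102 the nearest were the GDSL lipase USD-729 (0.22), the dehydroascorbate reductase USD-154 (0.33) and the fasciclin-like protein USD-174 (0.34).

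All the nearest clones of USD-104 and USD-190 were ribosomal protein clones. For USD-104 they were L28 (USD-361, 0.15), S24 (USD-287, 0.20) and S25 (USD-10, 0.26), and for USD-190 they were L18 (USD-547), S25 (USD-10) and L37 (USD-219), each at 0.31. The control clones, also of ribosomal proteins, were left out of this search.

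Clones of connected steps were counted by lists of annotation words, with rises and falls relative to the typical clone. Values of single clones from these lists are on that scale unless the control clones or the control scale are named. Several lose their call or change sign on the control scale. Of 5 antioxidant clones, 3 rose and 1 fell in slow-dried total RNA, 2 rose and none fell in rehydrated total RNA, and 1 rose and 1 fell in each polysomal comparison. Over all clones the shares that rose and fell were 32.4% and 30.6% in slow-dried total, 29.4% and 26.8% in rehydrated total, 21% and 24.5% in slow-dried polysomal, and 19% and 17.6% in rehydrated polysomal RNA. The median log2 ratio of the 5 antioxidant clones was 1.15, -0.07, 0.01 and 0.03 in the 4 comparisons, beside 0.05, -0.01, 0.03 and -0.02 over all clones. Against the control clones 4, 5, 4 and 4 were higher and 0, 0, 0 and 1 lower, where 77.7, 72.5, 81.6 and 75.5% of all clones were higher and 3.26, 1.56, 2.6 and 1.3% lower, so that the direction of some depends on the scale. Catalase USD-265, which breaks down hydrogen peroxide, rose in slow-dried total, slow-dried polysomal and rehydrated polysomal RNA, by 2.14, 1.21 and 0.69 on the log2 scale (adjusted p of 0.000222, 0.00241 and 0.0262, limma). It was also called higher in rehydrated total RNA (adjusted p = 0.00046, limma), where its hydrated channel was not well above background on either array and the size of the change is not given. Thioredoxin H USD-658, a thiol reductant, fell by 2.06 in slow-dried total RNA (adjusted p = 0.00145, limma). Stromal ascorbate peroxidase USD-167, which uses ascorbate against hydrogen peroxide, had -1.42 and -1.79 in slow-dried and rehydrated polysomal RNA (adjusted p of 0.00243 and 0.00397, limma).

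Dehydroascorbate reductase uses glutathione to return oxidised ascorbate to its reduced form, and 2 clones carried this annotation. Both had a change of 1.15 in slow-dried total RNA, with adjusted p of 0.00201 for USD-154 and 0.00122 for USD-202 (limma). In rehydrated total RNA USD-154 had -0.07 (adjusted p = 0.777) and USD-202 had 0.54 (adjusted p = 0.0268). Neither was called in polysomal RNA on this scale, with 0.51 and 0.01 for USD-154 and 0.01 and 0.03 for USD-202 in slow-dried and rehydrated tissue. On the control scale both were called higher there, the common outcome on that scale. USD-154 had 1.92 and 1.06 (adjusted p of 5.64e-06 and 0.00346, limma), and USD-202 had 1.42 and 1.08 (adjusted p of 9.64e-05 and 0.00223, limma). USD-202 and some clones of the next paragraphs (USD-69 and USD-30) were singled out after their values were seen.

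The list for glutathione and NADPH supply held 7 clones, of which 2 rose and 4 fell in slow-dried total RNA, 1 rose and 3 fell in rehydrated total RNA, 1 rose and 2 fell in slow-dried polysomal RNA, and 1 rose and 1 fell in rehydrated polysomal RNA. The shares over all clones were those given for the antioxidant list, between 19 and 32.4% higher and between 17.6 and 30.6% lower. The median was -1.39, -0.55, -0.66 and -0.27 in these comparisons. It was 0.05, -0.01, 0.03 and -0.02 over all clones. Against the control clones 3, 3, 3 and 5 were higher and 0, 1, 0 and 0 lower, beside 72.5 to 81.6% higher and 1.3 to 3.26% lower over all clones. The word serine alone brought in 4 of them, a carboxypeptidase, a phosphatase-domain protein, a kinase-like protein and a decarboxylase, which are not known for glutathione or NADPH supply. The list medians are values of the carboxypeptidase USD-186 and, in slow-dried polysomal RNA, of the phosphatase-domain clone USD-229. They therefore do not describe glutathione or NADPH supply. Of these 4 clones, serine decarboxylase USD-329 had the largest called rise in each comparison, between 1.11 and 1.53 outside slow-dried total RNA, where its hydrated channel was not well above background on either array. Kinase-like USD-233 had the largest called fall in slow-dried total RNA (-1.97).

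Chloroplast gamma-glutamylcysteine synthase USD-69, the enzyme of the first step of glutathione synthesis, had 0.61 ± 0.16 in slow-dried total RNA (adjusted p = 0.0132, limma). It was not called in the other comparisons, with 0.30, 0.10 and -0.22. Glucose-6-phosphate dehydrogenase USD-129, a source of NADPH for glutathione reduction, fell relative to the typical clone in all 4, by 1.45, 1.73, 1.63 and 1.63 (adjusted p of 0.000419, 0.00046, 0.000659 and 0.00302, limma). Relative to the control clones it was called in none by limma, with 0.04, -0.55, -0.22 and -0.58. Ferredoxin-dependent glutamate synthase USD-11 had the largest fall of the list in rehydrated total RNA, at -2.25 (adjusted p = 0.00046, limma).

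Of 6 clones for carbonyl and xenobiotic detoxification, 2 rose and 3 fell in slow-dried total RNA (32.4% and 30.6% of all clones) and 1 rose and 4 fell in rehydrated total RNA (29.4% and 26.8%). In each polysomal comparison 3 fell and none rose, where 24.5% and 17.6% of all clones fell in slow-dried and rehydrated tissue and 21% and 19% rose. The median was -0.73, -0.69, -0.34 and -0.48 in the 4 comparisons, and against the control clones 3, 2, 4 and 3 were higher, beside 77.7, 72.5, 81.6 and 75.5% of all clones, and 0, 2, 1 and 1 were lower, beside 3.26, 1.56, 2.6 and 1.3%. Relative to the typical clone, mitochondrial aldehyde dehydrogenase USD-364, which oxidises reactive aldehydes, rose in total RNA (0.73 in slow-dried and 0.52 in rehydrated tissue) and fell in polysomal RNA (-0.92 and -0.80). On the control scale it was also higher in total RNA (2.22 and 1.71). The polysomal values there were 0.49 and 0.25, above 0 and not called (adjusted p of 0.115 and 0.440, limma). Soluble epoxide hydrolase USD-766, which opens epoxides, had -2.13 and -1.98 in slow-dried and rehydrated polysomal RNA (adjusted p of 0.000581 and 0.00204, limma). The aldehyde dehydrogenase Aldh21A1 clone USD-30 was called in rehydrated total RNA alone, at -0.68 (adjusted p = 0.00676, limma). The largest moves in total RNA were an ABC transporter pair, USD-400 at 0.78 and USD-745 at -1.79 in slow-dried tissue, and the monooxygenase USD-224 at -2.02 in rehydrated tissue.

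The list for sugar breakdown, the source of methylglyoxal, held 3 clones, all annotated as glyceraldehyde-3-phosphate dehydrogenase, the glycolytic enzyme that consumes triose phosphate. In the 4 comparisons 1, 2, 0 and 0 rose and 0, 0, 1 and 0 fell, with a median of 0.31, 0.64, 0.31 and -0.12. These medians are the values of USD-453. Its hydrated channel was not well above background on either array in slow-dried total or slow-dried polysomal RNA. Neither was its treated channel in slow-dried polysomal RNA. Of all clones 32.4, 29.4, 21 and 19% rose and 30.6, 26.8, 24.5 and 17.6% fell. Against the control clones all 3 were higher in each comparison, the common outcome there, with 77.7, 72.5, 81.6 and 75.5% of all clones higher. USD-566 was called higher in slow-dried and rehydrated total RNA (adjusted p of 0.00175 and 0.00101, limma). Its hydrated channel was not well above background on any of those 4 arrays, so the size of the change is not given. USD-462 was called higher in rehydrated total RNA (0.47, adjusted p = 0.0383) and lower in slow-dried polysomal RNA (-0.57, adjusted p = 0.024). On the control scale the slow-dried polysomal value was 0.84 (adjusted p = 0.0073, limma), a higher call. No clone of this list was called in rehydrated polysomal RNA by limma, where the lowest adjusted p was 0.0779.

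**Figure D5:**
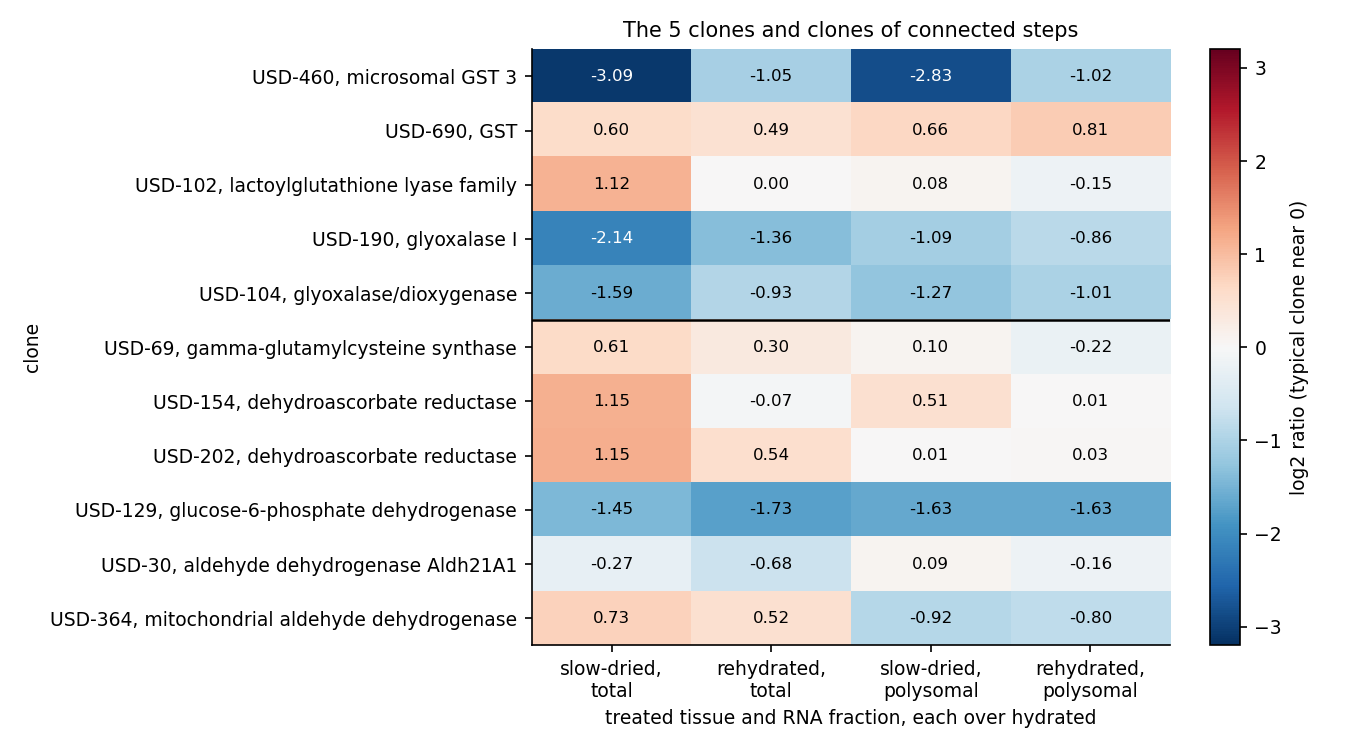
Limma log2 ratio over hydrated tissue (colour and printed value, typical clone near 0) for the 5 clones and 6 clones of connected steps (rows) in the 4 comparisons (columns). In slow-dried total RNA USD-102, both dehydroascorbate reductase clones and gamma-glutamylcysteine synthase are above 0, and USD-460, USD-190, USD-104 and glucose-6-phosphate dehydrogenase are below it.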

How the data were processed

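The deposited scanner files give, per the file headers, the intensity of each spot and of its local background in each channel, in scanner units without normalization, and a flag, a score from 0 to 3. The authors also deposited a table with 1 ratio per clone and array, which served as an alternative. For the flag's meaning, the scanner, the software and the making of that table, the method is not given in the sources used here.

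Both channels (mean signal, median local background) were corrected with normexp (offset 50), and log2 ratios were normalized by global loess (span 0.3, 4 iterations). The 3 spots of a clone were averaged. One limma 3.58.1 model in R 4.3.3 covered all 8 arrays, with 4 comparison coefficients and a dye term. It had 3 residual degrees of freedom and, on the typical-clone scale, 6.41 in total after moderation. The control scale and each alternative were fitted anew, with their own moderation and total degrees of freedom. With the dye swap alone, moderation gave the members a common SE of 0.56 in the comparisons with hydrated tissue. P-values were two-sided and adjusted over 768 clones by Benjamini-Hochberg. They measure the spread between pooled RNA preparations. The number of arrays limits the precision. Well above background means a signal above the background median by 2 background SD. Where a channel of a member or list clone with a printed value missed this on both arrays of that comparison, the text says so. The fit was tested on simulated data.

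The text names every member, the 3 annotated clones most like each member, the 4 control clones, and from each list the largest called change in each direction per comparison. Members and lists were chosen with earlier results of these data known. Replicate numbers were assigned here by dye and pair no samples. Whether arrays of different comparisons share hydrated RNA is not stated, so the comparisons may not be independent. The design text names S14, S16, L23 and L15 as control genes, while the labels and files name L17, S14, S16 and S3. Alternatives changed the scale, background, normalization, spots, filters, dye term, arrays fitted and source of values. Figures were drawn with matplotlib 3.10.9.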

Additional observations from a re-analysis of the deposited data

Results flagged for a closer look

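USD-460 responded differently to the treatments. A direct test of slow-dried minus rehydrated gave -2.04 ± 0.22 in total RNA (adjusted p = 0.00516, limma) and -1.81 ± 0.22 in polysomal RNA (adjusted p = 0.0152, limma), and the ratio was lower on all 4 slow-dried arrays than on any of the 4 rehydrated ones. The polysomal difference was not past the threshold in 7 of 21 alternative settings, among them the control scale (-1.45, adjusted p = 0.112) and each of the 4 that leave out 1 polysomal array (adjusted p of 0.148 to 0.277). USD-102 also differed between treatments in total RNA, by 1.12 ± 0.24 (adjusted p = 0.0257, limma), a call lost in 10 of 21 settings (adjusted p up to 0.0873 with 1 array left out). In slow-dried tissue its polysomal response differed from its total response by -1.05 ± 0.24 (adjusted p = 0.0205, limma). That call was lost in 10 of 20 settings, the control scale included (-1.13, adjusted p = 0.0562). The part that the different slides play in that difference was not tested.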

How the results depend on the processing

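The 40 member values (5 clones in 8 comparisons and differences) were recomputed in 21 settings, 8 of which left out 1 array each, which gave 822 values. One setting, the background mean, was chosen after seeing the data. Without an array that a value does not use, its fitted change stayed as it was, and only its SE and p-value moved. Of these values 717 kept their direction and their side of the threshold, or changed sign between 2 uncalled values (50). At the same sign, 46 lost the call and 38 gained one, and 21 reversed. Reversed means a change of sign where 1 of the 2 values was called. In none of the 21 did a call become a call in the opposite direction. The fall of USD-460 in slow-dried total RNA (-3.12 to -1.19) and slow-dried polysomal RNA (-2.99 to -1.34) and the rise of USD-102 in slow-dried total RNA (0.76 to 3.04) were called in all 21 settings.

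All 21 reversals came on the control scale, with the dye swap alone or in the authors' ratios, and by construction the control scale adds a constant per array. In the authors' deposited ratios, USD-104 had 0.20 in slow-dried total, 0.47 in rehydrated total, 0.11 in slow-dried polysomal and 0.16 in rehydrated polysomal RNA, USD-460 had 0.35 in rehydrated total and 0.13 in rehydrated polysomal, USD-190 had 0.13 in slow-dried polysomal and 0.26 in rehydrated polysomal, and USD-102 had 1.04 in rehydrated polysomal. On the control scale USD-460 had 0.14 and 0.031 in rehydrated total and polysomal RNA, USD-104 had 0.25, 0.14 and 0.045 in rehydrated total, slow-dried polysomal and rehydrated polysomal RNA, USD-190 had 0.32 and 0.19 in slow-dried and rehydrated polysomal RNA, and USD-102 had 0.90 in rehydrated polysomal RNA. With the dye swap as the only normalization, rehydrated total values were 0.42 for USD-460, 0.0066 for USD-190 and 0.46 for USD-104, and USD-190 had 0.082 in slow-dried polysomal RNA.

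Member counts moved as follows, and the cause was not tested. On the control scale 2 clones were higher in each comparison, 0 were lower in rehydrated total and rehydrated polysomal and 1 in slow-dried polysomal RNA, and 0 were lower in slow-dried minus rehydrated polysomal and in polysomal minus total slow-dried. With the dye swap alone 2 were higher in slow-dried total, rehydrated total and slow-dried polysomal RNA, 1 was lower in slow-dried total and slow-dried polysomal, and 0 were lower in the rehydrated comparisons or called in any difference. In the authors' ratios 1 was lower in each slow-dried comparison and 0 in each rehydrated one, 2 were higher in rehydrated total and 1 in each polysomal comparison, and 0 were called in the differences. USD-690 counted as 1 higher in rehydrated total with median centring, in slow-dried polysomal with median centring or 1 fraction fitted alone, and in rehydrated polysomal with median centring, no background correction, median pixels, no dye term, the background mean or 1 fraction alone. The higher count in slow-dried minus rehydrated total was 0 with no background correction, the median of spots or 1 fraction alone. Restricted to the 586 clones above background in a channel of every array, which leaves 4 members, 2 were lower there. In polysomal minus total slow-dried 1 was higher with no background correction, that filter or no dye term, and 0 were lower with no background correction.

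Leaving out 1 array gave 1 to 2 higher and 3 lower in slow-dried total, 0 to 1 higher and 3 lower in rehydrated total, 0 to 1 higher and 2 to 3 lower in slow-dried polysomal, and 0 to 1 higher and 0 to 3 lower in rehydrated polysomal RNA. Slow-dried minus rehydrated total gave 0 to 1 higher and 1 to 2 lower, slow-dried minus rehydrated polysomal 0 to 1 lower, and polysomal minus total slow-dried 0 to 1 in either direction. Without either rehydrated polysomal array, limma called 0 of 768 clones in that comparison (180 and 185 at an unadjusted p under 0.05), and the lone array is assumed to vary like the others. Each array pairs treated with hydrated RNA in its ratio. Arrays of different comparisons were not paired, since the labels carry no replicate numbers.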
